A study of Mus musculus with 8 samples.

Results

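Sox7, Sox17, Sox18, Erg, Fli1, Ets1, Elk3, Tal1, Lyl1 and Gata2 are 10 transcription factor genes of endothelial and blood-forming cells. They were chosen by symbol, as genes of the SoxF, ETS and haemogenic classes, with earlier results of these data known. Shares of the 10 that are set beside shares of all genes are therefore descriptions only. All 10 were found among the 19938 genes that the arrays of these pancreatic buds measure. Each had exactly 1 probe set that maps to its symbol alone, so no choice between probe sets was needed. The samples were 4 pools of RNA on 8 Affymetrix arrays of the mouse gene ST design, version 1.0. The VEGF pool held fresh e12.5 buds of 3 embryos with genotype Pdx1-tTA; TET-VEGF, in which the promoter of Pdx1, a factor of the pancreatic epithelium, drives a tetracycline transactivator that switches on a VEGF transgene. The control pool held e12.5 buds of 3 littermates with genotype Pdx1-tTA, so that both pools carry the transactivator. The remaining pools held 5 buds each, all wild type, which were taken at e12.5 and cultured as explants for 2 days with VEGFR2i, an inhibitor of VEGF receptor 2, or with vehicle. Every pool was hybridized to a first array and to a technical repeat.

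Each condition is therefore 1 sample, and the 2 arrays of a pool show hybridization error only, so that no test of a condition was possible. Expression is on the log2 scale after robust multi-array averaging (RMA). A difference is between pool means and is followed by its lowest and highest value over the 4 pairs of arrays in brackets. The size rule used here calls a gene higher or lower if pool means are at least 1.5-fold apart, which is 0.58 on the log2 scale, and the arrays of the pools do not overlap. Between the arrays of a single pool, 4 to 25 of the 19938 genes differed by that size. Among the 10 factors only Sox18 in the vehicle pool did, with a gap of 0.67. The median of all probe sets was 4.08 to 4.12 on arrays of fresh buds and 4.29 to 4.33 on those of explants, and it is not known whether both sets were normalized in 1 run. The 10 epithelial markers were above the array median in every pool, with median levels of 7.40 in VEGF buds, 8.04 in control buds, 9.39 in explants labelled VEGFR2i and 9.67 in explants labelled vehicle.

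Of 22 endothelial markers, 21 were higher by the size rule in the pool labelled VEGFR2i than in the pool labelled vehicle. Their median difference was 1.63. The label names an inhibitor of a receptor on which endothelial cells depend, so the opposite direction might be looked for. With 1 pool per label, the cause of this direction was not tested. The labels were kept as they stand, and directions in the explants describe these pools, not the action of the compound. In all bulk values here, fewer cells of a type and less RNA per cell cannot be told apart.

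SoxF factors bind DNA through an HMG box and act partly in place of one another in vessel formation, where Sox17 is linked to arteries and Sox18 to the first lymphatic cells. ETS factors bind sites with a GGAA core, which are frequent in the control regions of endothelial genes, and Erg and Fli1 maintain endothelial identity. Tal1, Lyl1 and Gata2 act in haemogenic endothelium, the vessel lining that gives rise to blood cells, and later in blood lineages. In the developing pancreas vessels run through the mesenchyme around the branching epithelium. Most of these genes are known chiefly from vascular and blood cells, but not only from them. Sox17 is also known from early endoderm, and ETS genes of this group from mesenchymal cells.

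RefSeq promoters of the build GRCm38.p6 were at hand for Erg, Elk3, Tal1, Lyl1 and Gata2, with 9 start sites in all. The 250 bases before each start were searched on both strands for 4 kinds of core. The ETS core was CCGGAA, with AGGAAG and also ACGGAA as further spellings. The SoxF core was ACAAT, with ACAAAG as its other spelling, and the GATA core was AGATAA, with TGATAA as its other spelling. The E-box of the Tal1 type was CAGATG, with CAGCTG as its other spelling. Of these genes, Erg and Elk3 were higher by the size rule in the pool labelled VEGFR2i, and Tal1, Lyl1 and Gata2 were not. At least 1 window of Erg, Elk3, Tal1 and Lyl1 holds an ETS core, and no window of Gata2 does. By window the share was 44.4%, close to the 41.1% of all promoter windows, so the core does not set these genes apart. The 4 windows that hold an ETS core are shown here. They are written 5′ to 3′ on the strand of the gene, ending at the base before the start, with every match in capitals.
Erg, chr16:95459349-95459598, minus strand: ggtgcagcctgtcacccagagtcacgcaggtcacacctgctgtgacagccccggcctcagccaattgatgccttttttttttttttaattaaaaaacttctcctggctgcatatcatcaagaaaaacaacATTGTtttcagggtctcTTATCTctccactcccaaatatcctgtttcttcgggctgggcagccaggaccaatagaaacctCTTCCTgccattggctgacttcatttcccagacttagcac
Elk3, chr10:93311160-93311409, minus strand: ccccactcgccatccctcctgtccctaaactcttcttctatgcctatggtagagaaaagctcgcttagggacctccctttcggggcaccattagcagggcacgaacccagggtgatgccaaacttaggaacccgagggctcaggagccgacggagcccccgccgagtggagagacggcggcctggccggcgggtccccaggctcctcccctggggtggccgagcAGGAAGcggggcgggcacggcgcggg
Tal1, chr4:115056176-115056425, plus strand: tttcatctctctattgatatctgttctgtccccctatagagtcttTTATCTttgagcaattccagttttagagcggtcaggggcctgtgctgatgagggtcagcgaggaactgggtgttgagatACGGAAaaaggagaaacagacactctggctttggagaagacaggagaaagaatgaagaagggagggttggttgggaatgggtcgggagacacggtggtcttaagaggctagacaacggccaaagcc
Lyl1, chr8:84701207-84701456, plus strand: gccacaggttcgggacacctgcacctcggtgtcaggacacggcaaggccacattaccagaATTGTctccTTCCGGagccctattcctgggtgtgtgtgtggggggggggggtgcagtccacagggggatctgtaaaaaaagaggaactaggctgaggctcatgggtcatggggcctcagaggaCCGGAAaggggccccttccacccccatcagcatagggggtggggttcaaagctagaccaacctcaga

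Lyl1 held 2 ETS cores, 181 to 176 and 67 to 62 bases before the start, and a SoxF core at 190 to 186. The third start of Erg held an ETS core at 40 to 35, a GATA core at 103 to 98 and a SoxF core at 120 to 116. Elk3 held an ETS core at 26 to 21, and the first start of Tal1 an ETS core at 126 to 121 and a GATA core at 205 to 200. No match overlapped another. The windows of the first and second starts of Erg, the second start of Tal1 and both starts of Gata2 held none. An ETS core was thus present in 44.4% of the 9 windows, against 41.1% of all 32851 promoter windows of the same length. SoxF cores were in 22.2% of the 9 against 38.8%, GATA cores in 22.2% against 16.6%, and the E-box in 0 of 9 against 25.5%. The matches are a description of these letters and do not show that a factor binds there.

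Added VEGF in the Pdx1 territory was the question of the fresh bud comparison. All 10 factors had a positive difference between VEGF and control buds, but the differences were small, with a median of 0.26 or 1.2-fold. Over all 19938 genes the median was 0.00 and 51.6% were positive. Both VEGF arrays lay above both control arrays for 9 of 10 factors, the exception being Lyl1, whereas 23.7% of all genes showed that pattern. Only Erg passed the size rule, and none of the 10 reached 2-fold, as 0.0602% of all genes did by being higher. The share for Erg, 1 of 10, stands against 0.552% of all genes that were higher by it and 0.933% that were lower.

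**Figure D1:**
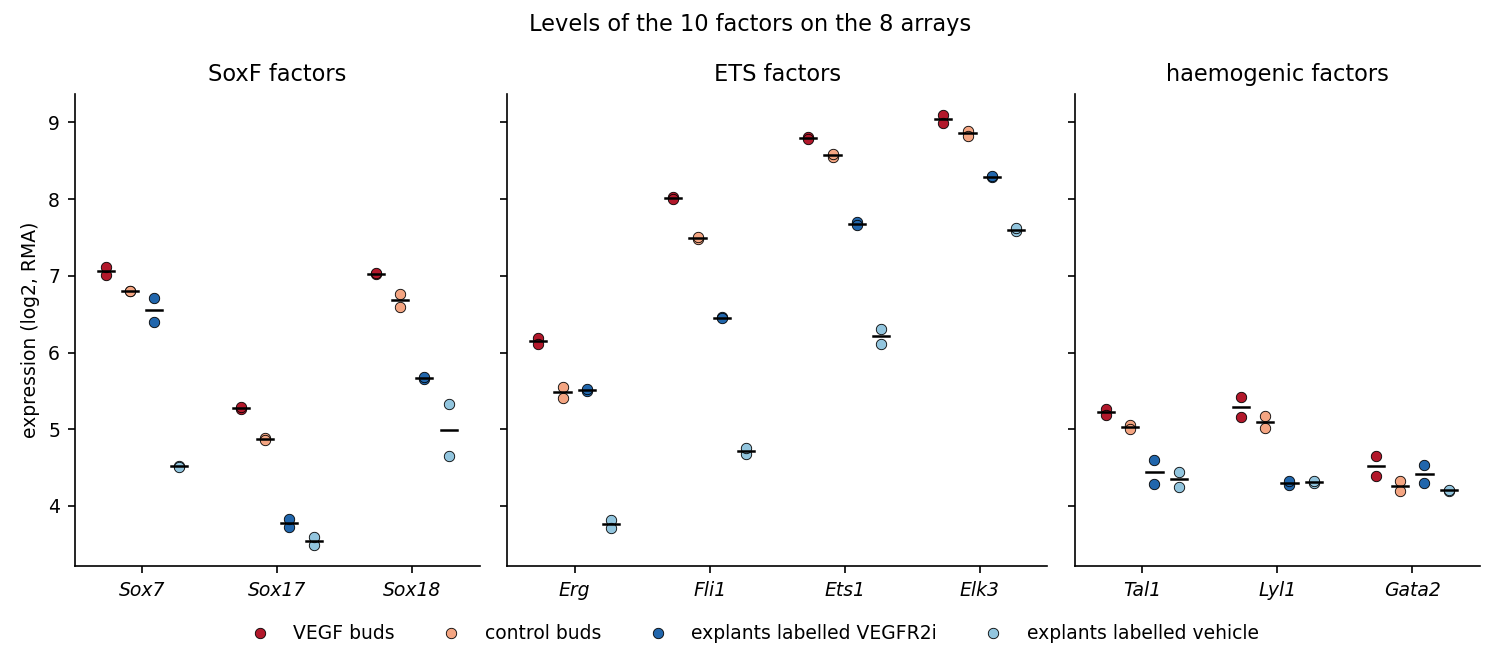
Expression (log2, RMA) of the 10 factors in VEGF buds, control buds, explants labelled VEGFR2i and explants labelled vehicle. Points are the 2 arrays of a pool and bars their mean; levels compare pools within a gene, not genes, and the arrays of Sox18 in the vehicle pool stand apart at 5.32 and 4.65.

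Erg, which keeps vessels mature and their junctions closed, was at 6.18 and 6.11 on the arrays of VEGF buds, against 5.55 and 5.41 on those of control buds. Its difference of 0.67 [0.56, 0.78], or 1.59-fold, exceeded the gaps between arrays of a pool. Fli1, its closest relative here, was at 8.02 and 8.0 in VEGF buds, against 7.48 and 7.5 in control buds. The arrays were tight and well apart, and the difference of 0.52 [0.50, 0.54] was 1.44-fold, just short of the size rule.

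Ets1, which acts in endothelium and lymphocytes, was at 8.81 and 8.78 in VEGF buds, against 8.55 and 8.58 in control buds. Elk3, a ternary complex factor that represses its targets until it is phosphorylated by ERK, was at 9.10 and 9.0 in VEGF buds, against 8.89 and 8.83 in control buds. Both were slightly higher without overlap, Ets1 by 0.23 [0.20, 0.25] and Elk3 by 0.19 [0.10, 0.27], and neither reached the size rule.

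SoxF genes lay between these pairs. Sox17, which is also a factor of early endoderm, had 5.27 and 5.29 in VEGF buds, against 4.89 and 4.86 in control buds. Sox18 had 7.02 and 7.03 in VEGF buds, against 6.76 and 6.60 in control buds. Sox7 had 7.01 and 7.12 in VEGF buds, against 6.80 and 6.80 in control buds. None of these 3 genes overlapped between the pools, and their differences were 0.40 [0.37, 0.43], 0.35 [0.26, 0.44] and 0.27 [0.21, 0.32], all under the size rule.

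The haemogenic factors were also under the size rule. Tal1, which is needed for all embryonic blood, had 5.27 and 5.19 in VEGF buds, against 5.05 and 5.00 in control buds, a difference of 0.20 [0.13, 0.26]. Lyl1, its closest relative, had 5.16 and 5.42 in VEGF buds, against 5.02 and 5.18 in control buds, and the arrays overlapped (0.19 [-0.02, 0.40]). Gata2, a zinc finger factor of blood stem cells and endothelium, had 4.65 and 4.39 in VEGF buds, against 4.19 and 4.32 in control buds. Its difference was 0.26 [0.07, 0.46], and its VEGF arrays alone differed by 0.26.

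As a yardstick, the 22 endothelial markers, which share no gene with the factors, had a median difference of 0.52 between VEGF and control buds, and 6 of them were higher by the size rule. Erg lay 0.15 above that median and Fli1 0.01 above it, while the other 8 factors lay below it, by -0.12 for Sox17 to -0.33 for Elk3. Kdr, the gene of VEGF receptor 2, differed by 0.75, and Cd34, a sialomucin of endothelial and blood progenitor cells, by 1.02. Those 6 markers also include Flt1 (0.90), Mmrn2 (0.79), Emcn (0.60) and Robo4 (0.59).

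Red cell and platelet markers were higher in the same comparison. Of 10 red cell markers, 6 were higher in VEGF buds and none lower, with a median of 0.97. Their summed level, as log2 of the sum of linear values, was 13.04 to 13.06 in VEGF buds, against 12.47 and 12.504 in control buds. Of 7 platelet and megakaryocyte markers, 3 were higher, Ppbp (2.47), Gp9 (0.78) and Itga2b (0.65), with a summed level of 8.17 to 8.33 in VEGF buds and 7.19 to 7.24 in control buds. Of 7 liver markers, 4 were higher, with the largest difference for Alb (2.37). No red cell marker and 2 platelet markers were below the array medians in both pools. Tal1 and Gata2 act in red cells and megakaryocytes, and Fli1 and Erg in megakaryocytes; the part of those cells in the values of the factors was not tested. None of 15 leukocyte markers passed the size rule, and their median was 0.07. Of 10 epithelial markers 4 were lower in VEGF buds, with a median of the list of -0.53 and the largest difference for the mucin gene Muc1 (-1.0), and of 6 neuronal and glial markers 3 were lower, with a median of -0.57.

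**Figure D2:**
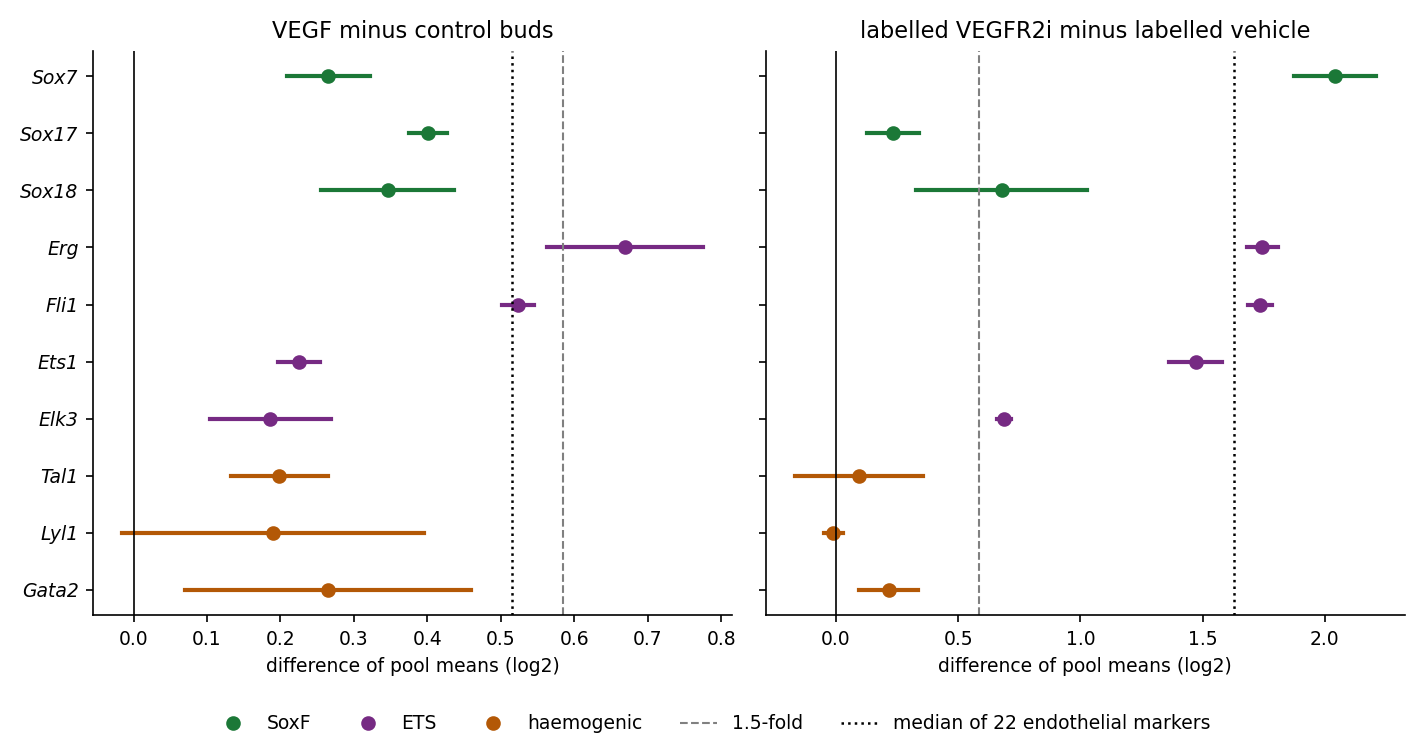
Difference of pool means (log2) for each factor, VEGF minus control buds on the left and explants labelled VEGFR2i minus labelled vehicle on the right. Bars span the 4 pairs of arrays, the dashed line is 1.5-fold and the dotted line the median of 22 endothelial markers (0.52 and 1.63); the horizontal scales differ.

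Blocking VEGF receptor 2 in cultured buds was the question of the explant comparison. All 4 ETS factors and the SoxF genes Sox7 and Sox18 were higher in the pool labelled VEGFR2i, which makes 6 of 10 factors, against 1.82% of all genes that were higher by the size rule and 0.371% that were lower. No factor was lower. Sox7, Erg, Fli1 and Ets1 were past 2-fold, against 0.617% of all genes. A positive difference was found for 9 of 10 factors, against 48.1% of all genes. The median difference of the 10 was 0.68 or 1.61-fold, against 0.00 over all genes. Without the second vehicle array, 5 factors passed and Sox18 was the one lost.

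Sox7 showed the largest difference of the 10. It was at 6.72 and 6.40 on the arrays labelled VEGFR2i, against 4.52 and 4.51 on those labelled vehicle, a difference of 2.04 [1.87, 2.21] or 4.12-fold. Only 20 of the 19938 genes had a larger positive difference. Sox18 was at 5.65 and 5.68 in the pool labelled VEGFR2i, against 5.32 and 4.65 in the pool labelled vehicle. The wide gap between its vehicle arrays carried over to the difference of 0.68 [0.33, 1.03], which was 0.34 without the second vehicle array and 1.01 without the first. Sox17 was at 3.73 and 3.84 in the pool labelled VEGFR2i, against 3.50 and 3.60 in the pool labelled vehicle. Both pools lay under their array medians, at the dim end where RMA compresses differences, and the difference was 0.23 [0.13, 0.34].

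The ETS genes were closer to one another. Erg was at 5.49 and 5.52 in the pool labelled VEGFR2i, against 3.81 and 3.71 in the pool labelled vehicle. Fli1 was at 6.46 and 6.44 in the pool labelled VEGFR2i, against 4.68 and 4.76 in the pool labelled vehicle. These related genes differed by nearly the same amount, 1.75 [1.68, 1.81] and 1.74 [1.69, 1.78], or 3.35-fold and 3.33-fold. Erg lay under the array median in the vehicle pool, so that its fold may be understated. Ets1 was at 7.70 and 7.67 in the pool labelled VEGFR2i, against 6.30 and 6.11 in the pool labelled vehicle, with a difference of 1.47 [1.36, 1.58]. Elk3 was at 8.28 and 8.30 in the pool labelled VEGFR2i, against 7.58 and 7.62 in the pool labelled vehicle. Its difference of 0.69 [0.66, 0.72] was the smallest of the ETS genes and passed the size rule with tight arrays.

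None of the 3 haemogenic factors passed the size rule in the explants. Tal1 was at 4.28 and 4.60 in the pool labelled VEGFR2i, against 4.45 and 4.24 in the pool labelled vehicle, and the arrays overlapped (0.09 [-0.17, 0.36]). Lyl1 was at 4.28 and 4.32 in the pool labelled VEGFR2i, against 4.30 and 4.33 in the pool labelled vehicle, with a difference of -0.01 [-0.05, 0.03]. The 2 relatives lay close to the array medians in both explant pools. Gata2 was at 4.31 and 4.54 in the pool labelled VEGFR2i, against 4.20 and 4.21 in the pool labelled vehicle. Its difference of 0.22 [0.10, 0.34] was without overlap and below the size rule. Both arrays labelled VEGFR2i lay above both labelled vehicle for 8 of the 10 factors, against 25.9% of all genes.

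Against the endothelial markers, with their median of 1.63, Sox7 lay 0.41 above, Erg 0.11 above, Fli1 0.10 above and Ets1 at -0.16. Sox18 and Elk3 fell short of that median by 0.95 and 0.94 on the log2 scale. For Sox17, Gata2, Tal1 and Lyl1 the distance was -1.40, -1.41, -1.54 and -1.64. Summed levels of the endothelial markers were 11.8 in the pool labelled VEGFR2i, against 10.2 in the pool labelled vehicle. None was under the array median in both. In the vehicle pool, Emcn, Mmrn2, Tek, Robo4, Icam2, Esam, Flt1 and Pecam1 were under the array median of 4.33. Their levels ran from 3.30 for Emcn to 4.31 for Pecam1. RMA compresses differences at that dim end, so the marker median of 1.63 may be understated. The places of the factors relative to that median are uncertain to the same degree. Cdh5, the cadherin of endothelial junctions and a textbook ETS target, had the largest difference of the markers (4.10), and Ece1 was the only one not past the size rule (-0.05).

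Leukocyte and mural cell markers were higher in the same pool. Of 15 leukocyte markers, 12 passed the size rule, with a median of 0.84 and summed levels of 10.47 to 10.52 in the pool labelled VEGFR2i, against 9.65 to 9.68 in the pool labelled vehicle. Only 1 of them was under the array median in both pools. Of 10 mural markers, 8 passed, with a median of 0.84 and summed levels of 12.74 to 12.77 in the pool labelled VEGFR2i, against 12.03 to 12.04 in the pool labelled vehicle. Fli1, Ets1, Erg and Elk3 are known from leukocytes or mesenchymal cells too, and the part of these cells in their values was not tested. Of the red cell markers only Hbb-y (2.23) and Hba-x (1.62), both embryonic globins, passed, and 7 of 10 were under the array medians in both explant pools. No platelet marker passed, and 5 of 7 were under the medians.

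**Figure D3:**
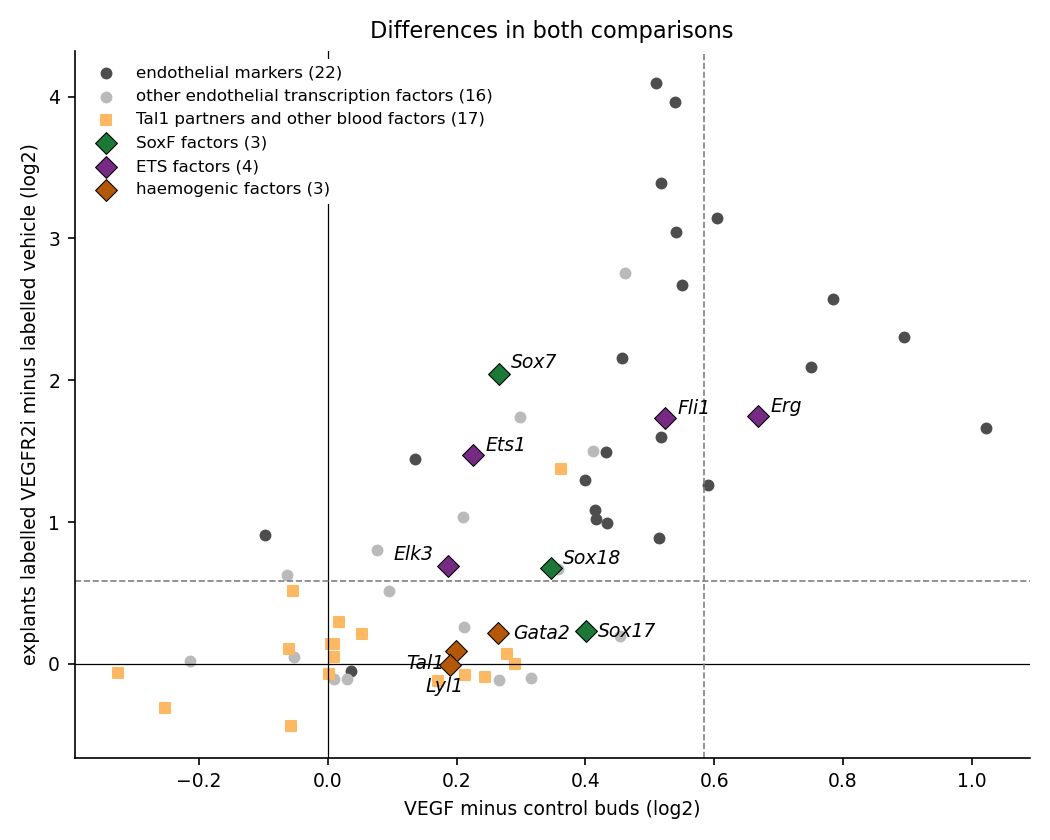
Difference in VEGF over control buds (horizontal, log2) and in explants labelled VEGFR2i over labelled vehicle (vertical, log2) for the 10 factors, as named diamonds, and 3 gene lists. Dashed lines are 1.5-fold. Erg is past both lines, Fli1 just left of the vertical one, and Tal1, Lyl1, Gata2 and Sox17 lie under the horizontal one.

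Set side by side, the 2 comparisons, which share no arrays, placed the factors in different orders. Erg was past the size rule in both. Sox17 had the third largest difference in the fresh buds (0.40) and the fourth smallest in the explants (0.23). It lay under the array medians in both explant pools, at 3.78 and 3.55 against 4.31 and 4.33, so its difference there may be understated. Sox7 was behind Erg, Fli1, Sox17 and Sox18 in the fresh buds (0.27, beside 0.26 for Gata2) and first in the explants (2.04). The difference between the comparisons was not tested for any factor.

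Relatives outside the 10 gave the wider picture. Of 21 other measured ETS genes, none was higher in VEGF buds and only Elf3, an epithelial factor, was lower (-0.60 [-0.87, -0.33], and -0.35 without the first control array). In the explants Etv5 (0.70), a target of FGF and ERK signalling, and Spi1 (0.63), the factor of macrophages, were higher in the pool labelled VEGFR2i, and none was lower. The medians of this list were 0.00 and 0.03. Etv2, which starts the endothelial lineage in the early embryo, was at 3.44 in VEGF buds and 3.38 in control buds, with 3.37 in explants labelled VEGFR2i and 3.57 in explants labelled vehicle, all under the array medians. Of 16 other Sox genes only Sox9, a factor of pancreatic progenitors, passed the size rule in the fresh buds, as lower by a difference of -0.70, and none passed in the explants.

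Of 17 partners of Tal1 and other blood factors, none passed the size rule in the fresh buds (median 0.01) and only Lmo2 did in the explants (median of the list 0.05). Lmo2, a LIM protein that bridges Tal1 and GATA factors on DNA and is also made in endothelium, was higher by 1.37 [0.90, 1.84] in the pool labelled VEGFR2i, at 7.40 against 6.02 in the pool labelled vehicle. In the fresh buds it was at 7.94 in VEGF buds and 7.58 in control buds, a difference of 0.36 [0.32, 0.41]. Runx1, the factor required for blood cells to leave the vessel wall, differed by -0.05 in the fresh buds and by 0.52 [0.49, 0.54] in the explants, short of the size rule but without overlap. Of the 5 other GATA genes none passed in either comparison, and Gata1, the red cell factor, differed by 0.29 in the fresh buds and 0.00 in the explants.

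Other transcription factors of endothelium were measured as well. Of 16, none passed the size rule in the fresh buds (median 0.21, with Bcl6b highest at 0.46), while 7 were higher and none lower in the pool labelled VEGFR2i (median 0.38). Bcl6b, an endothelial repressor, differed by 2.75, Epas1, the hypoxia factor of vessels, by 1.74, Hey1, a Notch target, by 1.5 and Mef2c by 1.04. Hey2 (0.80), Foxc2 (0.67) and Heyl (0.63) completed the 7.

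**Figure D4:**
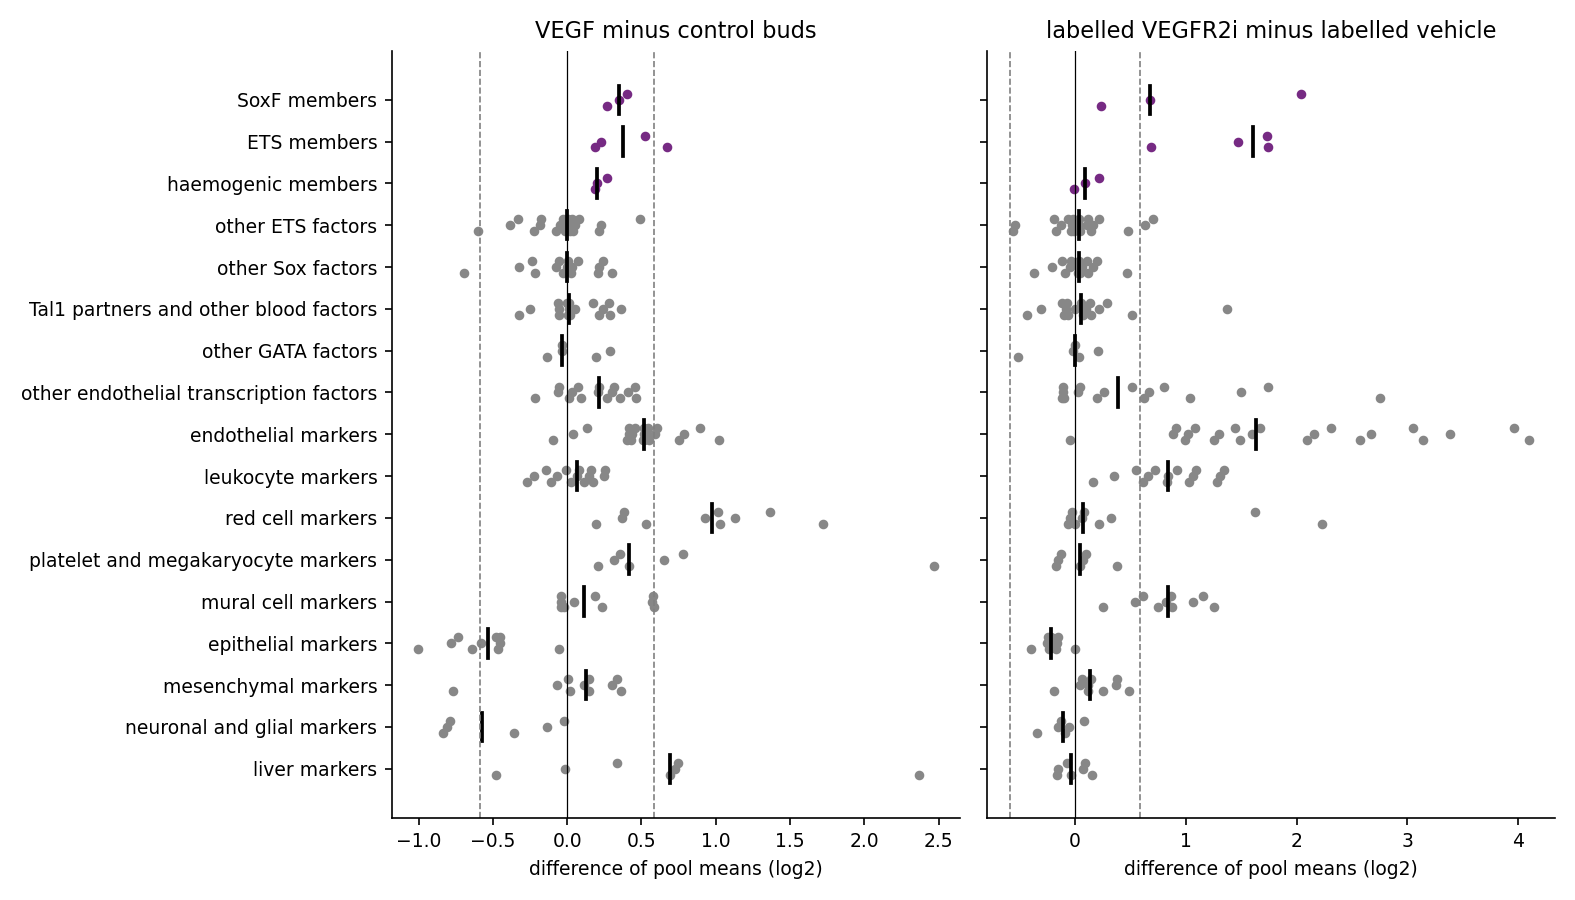
Differences of pool means (log2) for every measured gene of each list, VEGF minus control buds on the left and explants labelled VEGFR2i minus labelled vehicle on the right. Black bars are list medians and dashed lines 1.5-fold; on the right the median is 1.60 for the ETS members, 1.63 for the endothelial markers and 0.03 for the other ETS genes.

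Levels were also set across the sets, with the reserve that the vehicle pool lay above control buds by 0.17 in the median over all genes. Explants and control buds also differ in 2 days of culture, in genotype (wild type against Pdx1-tTA) and in pool size, which cannot be told apart. All 10 epithelial markers were higher in explants labelled vehicle than in control buds, with a median of 1.57. Relative to control buds, 9 of 10 factors were lower in the explants labelled vehicle, against 4.08% of all genes that were lower and 17.9% that were higher. Fli1 differed by -2.77 [-2.82, -2.72], at 4.72 against 7.49 in control buds, and Ets1 by -2.36 [-2.47, -2.25]. Sox7 was lower by a difference of -2.29 [-2.30, -2.27]. Gata2 was the exception, at 4.20 against 4.26. It lay close to the array medians of those pools, 4.33 and 4.11, so that a drop may be understated. Without the second vehicle array, Tal1 (-0.58) no longer passed and 8 factors did.

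In the explants labelled VEGFR2i the factors separated. Erg stood at 5.51 against 5.48 in control buds, with overlapping arrays, and Sox7 at 6.56 against 6.80, a difference of -0.24 [-0.41, -0.08]. Sox17 (-1.10), Fli1 (-1.04), Sox18 (-1.02), Ets1 (-0.89), Lyl1 (-0.80) and Tal1 (-0.59) were lower by the size rule, 6 of 10 factors against 2.52% of all genes that were lower and 17.7% that were higher. Tal1 no longer passed without the first control array or the first array labelled VEGFR2i, and Elk3, at -0.57 with all arrays, passed without the second control array. The endothelial markers had a median of -0.39 in that pool and of -2.43 in the pool labelled vehicle. With each array centred on its median, Erg differed by -0.17 and Elk3 also passed, which gave 7 factors. With quantile normalization of all 8 arrays, Erg differed by -0.29 and Sox7 passed as well, at -0.59, which gave 8.

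**Figure D5:**
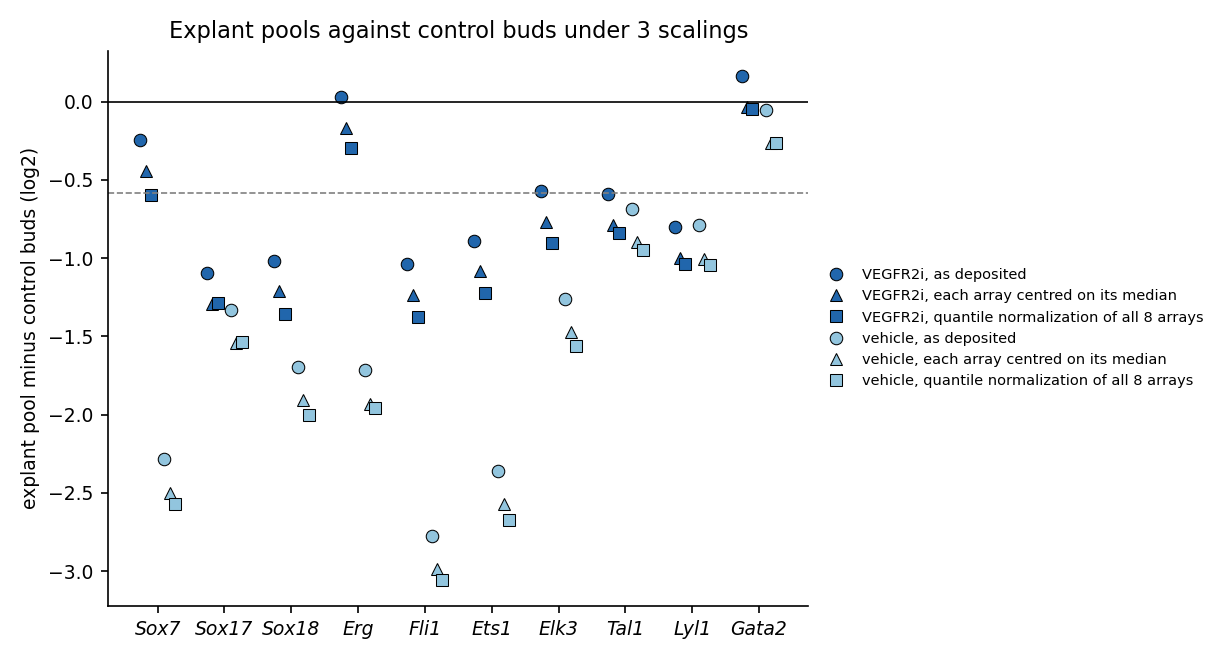
Difference (log2) of the explant pools from control buds for each factor, as deposited (circles), with each array centred on its median (triangles) and after quantile normalization of all 8 arrays (squares). The explants labelled VEGFR2i (dark) lie at the control level for Erg and Gata2 as deposited, and below it for Erg after quantile normalization (-0.29). Lyl1 and Tal1 are lower by a similar amount in both explant pools, where they lie close to the array medians.

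Tal1 and Lyl1 were lower than in control buds by nearly the same amount in both explant pools, at -0.59 and -0.80 in explants labelled VEGFR2i, against -0.68 and -0.79 in explants labelled vehicle. Both genes lay close to the explant array medians of 4.31 and 4.33, Tal1 at 4.44 and 4.35 and Lyl1 at 4.30 and 4.31. RMA compresses differences at that dim end, so that unequal drops may look alike. Of 10 red cell markers, 6 were lower and 1, Epb42, was higher than in control buds in each explant pool, with medians of -1.45 in explants labelled VEGFR2i, against -1.70 in explants labelled vehicle. The globin genes Hbb-y and Hba-x were further from control buds in the pool labelled vehicle. Hbb-y differed by -2.10 in explants labelled VEGFR2i, against -4.33 in explants labelled vehicle, and Hba-x by -3.35 against -4.97. Platelet markers had 4 of 7 lower in each, with medians of -0.73 and -0.70. The part of blood cells in the values of Tal1 and Lyl1 was not tested.

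Read from the highest to the lowest pool, Sox7, Sox17, Sox18, Fli1, Ets1 and Elk3 had 1 order: VEGF buds, control buds, explants labelled VEGFR2i and explants labelled vehicle, with no overlap between neighbours. Tal1 had the same order, but its explant pools overlapped. Erg, as deposited, had explants labelled VEGFR2i and control buds in an overlapping middle, below VEGF buds and above the vehicle pool. That overlap depended on the scaling. Explants labelled VEGFR2i lay below control buds for Erg by -0.17 [-0.23, -0.11] with arrays centred on their medians. With quantile normalization the difference was -0.29 [-0.37, -0.22]. For Lyl1 the fresh pools overlapped each other, as did the explant pools. All neighbours overlapped for Gata2, so that its order has no meaning. The share of all 19938 genes with the order of Sox7 was not counted, so these orders cannot be called unusual. Both VEGF arrays lay above both control arrays for 23.7% of all genes, and both labelled VEGFR2i above both labelled vehicle for 25.9%. The step from control buds to explants crosses the sets, which may have been normalized apart.

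Likeness of profile was measured as the Euclidean distance between the 4 pool means of a gene, centred on their own mean. It was taken among the factors and 10148 other named genes with a mean of at least 5 over the 8 arrays. Sox17, Tal1, Lyl1 and Gata2 are themselves under that limit, so other genes as dim as these were not candidates. By that measure the closest pairs of factors were Tal1 with Lyl1 (0.17), Sox17 with Sox18 (0.34) and Sox7 with Erg (0.42). Fli1 and Ets1 were 0.52 apart. The genes nearest to Fli1 were Eng (0.30), Kdr (0.33) and Ptprb (0.33), and those nearest to Ets1 were Gucy1b1 (0.11), Arap3 (0.16) and Eng (0.27). Sox7 had Rasip1 (0.32), Tm6sf1 (0.36) and the tight junction gene Cldn5 (0.37), and Erg had Tmem255a (0.17), Cd34 (0.26) and Itga2 (0.30). Sox18 was nearest to St8sia1 (0.10), Shank3 (0.12) and Scarf1 (0.12), and Sox17 to Ccl19 (0.10), Limch1 (0.15) and Barx1 (0.15). Elk3 was nearest to Egfr (0.08), Tal1 to Ahnak (0.04), Lyl1 to Emilin3 (0.03) and Gata2 to Adam22 (0.02). For the median profile of the ETS genes they were Arap3 (0.12), Gucy1b1 (0.16), Icam2 (0.21), Abcd2 (0.23) and Tm6sf1 (0.23), of which Arap3, Icam2 and Tm6sf1 were also nearest when profiles were centred within each set. For the median of the SoxF genes they were Shank3 (0.10), St8sia1 (0.10), Trib2 (0.13), Npr1 (0.13) and Kif21b (0.14), none of which was kept under that centring. With 4 pools and many genes that differ little between them, such distances describe these arrays only.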

How the data were processed

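Total RNA of pooled pancreatic buds was labelled by the Affymetrix whole transcript protocol and hybridized to mouse gene 1.0 ST arrays, per the labels' protocols. Per the series' design text, the authors normalized with RMA in the Partek Genomic Suite, version 6.5. Deposited is 1 log2 value per probe set and array, a scale taken from the range of 2.41 to 13.6. RMA compresses dim differences. No source used here says whether both sets were normalized in 1 run.

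The platform annotation gave 21789 of 35399 probe sets exactly 1 symbol, 1621 several and 11989 none. For the 999 genes with several probe sets, the brightest over the 8 arrays was kept, which left 19938 genes. Entrez IDs of 21698 probe sets matched RefSeq, used for names and promoters only. The 2 arrays of a pool were averaged, and with 1 pool per group genes were selected by size (1.5-fold, arrays not overlapping), with no p-value. Precision about a condition is limited by its 1 pool and cannot be judged from the arrays. The members, lists and rules were chosen with earlier results of these data known. Named genes were the 10 factors, up to 4 genes per list and comparison past the size rule plus those needed for counts of 5 or fewer, and the nearest profiles. Etv2, Runx1, Gata1, Ece1, Epb42, Hey2, Foxc2, Heyl and Lmo2 in the fresh buds were named outside that rule after their values were seen. Python 3.11.15, numpy 2.4.6 and pandas 2.3.3 were used. Alternatives were 2-fold, 2 scalings, the mean of probe sets, a filter on dim genes and leaving out each array.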

Additional observations from a re-analysis of the deposited data

How the results depend on the processing

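No paired analysis was possible because the arrays of a pool are technical repeats and each group is 1 sample. At 2-fold, 0 factors passed between VEGF and control buds, and 50 of all genes passed there, against 296 at 1.5-fold. In the explants 133 of all genes passed at 2-fold, against 437 at 1.5-fold. Among the factors 4 passed at 2-fold in the explants. Centring each array on its median gave median factor differences of 0.29 for VEGF over control and -1.72 for vehicle over control, and quantile normalization gave -1.76 for the last. Leaving out 1 array gave medians of 0.24 to 0.32 for VEGF over control, 0.53 to 0.84 for VEGFR2i over vehicle and -1.56 to -1.37 for vehicle over control. Erg passed in the fresh buds with each array left out, and 5 or 6 factors passed in the explants. The cause of these shifts was not tested. No direction of a called factor or median reversed in these settings. Of the 3 nearest genes of each factor, 1 in all (Cldn5 for Sox7) was also found when profiles were centred within each set. Each condition rests on 1 pool, whose 2 arrays show hybridization error only. Sox17, Erg, Lyl1 and Gata2 were under the array median in at least 1 pool.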
